A study of Rattus norvegicus with 24 samples.

Results

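The negative limb of the circadian clock was followed in rat thyroid glands through 7 genes: the period genes Per1, Per2 and Per3, the cryptochrome genes Cry1 and Cry2, and Csnk1d and Csnk1e, which encode casein kinase 1 delta and epsilon. They were found on the array by name: every non-control probe annotated with a member's symbol was taken, which gave 12 of 30367 probes and 7 of 26276 gene names. Per3 and Csnk1e had 3 probes each, Csnk1d had 2, and the other genes had 1. All 12 probes were bright enough in at least 1 group to be tested. The samples were thyroid glands of RccHan Wistar pups killed on postnatal day 35 ± 3, hybridised singly to 24 Agilent 1-colour arrays in 6 groups of 4. In the acrylamide groups dams drank acrylamide in water from gestational day 6, at a daily dose of 3 mg per kg of body weight that the pups went on receiving, and control groups had tap water. Glands were taken at 10 PM (night) from control females, acrylamide females, control males and acrylamide males, and at 10 AM (morning) from control females and acrylamide females. Animals lived under 12 hours of light and 12 hours of dark, but the hour of lights-on is not given in the sources used here, so clock times cannot be turned into times after lights-on. Nothing in the labels ties replicates to litters, and the p-values below measure the spread between these samples.

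In mammalian cells CLOCK and BMAL1 bind E-box sequences and switch on the Per and Cry genes, whose proteins form a complex that enters the nucleus and represses CLOCK and BMAL1. Casein kinase 1 delta and epsilon bind PER proteins and phosphorylate them, which sets how fast PER is degraded and so how long a cycle lasts. Per transcripts swing widely over the day in most peripheral tissues, each with its own peak, while the kinase transcripts are usually described as nearly flat.

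Each probe is 60 bases long, and where a gene has several probes they read different stretches of its transcripts. The 5 probe sequences below were chosen from those that the results turn on: the Per1 probe, 1 Per3 probe and 1 Csnk1d probe that disagreed with another probe of their gene, and the Csnk1e pair that overlaps. Capitals mark the 38 bases that the Csnk1e pair shares, so these probes are not separate readings of the gene.
Per1 A_64_P300243: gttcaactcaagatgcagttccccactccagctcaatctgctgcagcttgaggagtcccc
Per3 A_64_P119405: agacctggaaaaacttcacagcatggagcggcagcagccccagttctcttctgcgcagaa
Csnk1d A_64_P133899: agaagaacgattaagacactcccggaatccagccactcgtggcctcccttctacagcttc
Csnk1e A_64_P040498: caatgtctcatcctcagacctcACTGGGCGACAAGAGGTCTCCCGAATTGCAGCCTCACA
Csnk1e A_42_P515454: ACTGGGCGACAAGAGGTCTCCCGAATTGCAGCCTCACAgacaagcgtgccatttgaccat

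The probe positions are those of the array annotation on rat build rn4. The Per1 probe lies at chr10:55866200-55866259 on the plus strand and starts at base 2963 of its transcript NM_001034125. The Per2 probe A_42_P708593 lies at chr9:90645610-90645669 on the minus strand, at base 5433 of NM_031678. The Per3 probes lie on the minus strand of chromosome 5: A_64_P119407 at chr5:168152779-168152838, A_64_P127337 at chr5:168152839-168152898, directly beside it, and A_64_P119405 at chr5:168155353-168155412. They start at bases 3358, 3298 and 3137 of NM_023978. The Cry1 probe A_44_P374708 lies at chr7:20708985-20709044 (plus) and the Cry2 probe A_64_P050964 at chr3:76802802-76802861 (minus). The Csnk1d probes, on the minus strand of chromosome 10, lie at 110166268-110166327 (A_64_P133904, base 3544 of NM_139060) and 110173785-110173844 (A_64_P133899, base 1246). The Csnk1e probes, on the minus strand of chromosome 7, lie at 117402730-117403339 (A_42_P515454, which spans 610 genomic bases and so crosses a gap), 117403302-117403361 (A_64_P040498) and 117407598-117407657 (A_64_P127944). Exon and UTR annotation of rn4 was not used here.

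Promoter sequences from RefSeq on build GRCr8, 250 bases before to 50 after the annotated start, were matched for 5 of the 7 genes, Per1, Per2, Per3, Cry2 and Csnk1e. The Per2 promoter is shown because Per2 had the largest night to morning difference among the single-probe members and its window held the rarest of the matched motifs. The 250 bases before its start, at chr9:99496994-99497243 on the minus strand, read as follows, with motif matches in capitals.
Per2 promoter: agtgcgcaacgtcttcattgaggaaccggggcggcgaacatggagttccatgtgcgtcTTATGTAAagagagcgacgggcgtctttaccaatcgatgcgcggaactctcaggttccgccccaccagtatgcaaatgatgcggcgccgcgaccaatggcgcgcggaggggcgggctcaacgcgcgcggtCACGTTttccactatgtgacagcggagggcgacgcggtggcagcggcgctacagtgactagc
The D-box letters TTATGTAA, read by the PAR bZIP factors DBP, TEF and HLF, stand at -192 to -185 from the start, and 0.893% of 33469 rat promoters of this length hold them on either strand. The E'-box letters CACGTT, a CLOCK and BMAL1 site, stand at -62 to -57 and are held by 4.83% of promoters. CACGTT was also found in the Cry2 window, at -212 to -207. TGACG, the core of the cyclic AMP response element, was found in the windows of Per2 (after the start), Per3 and Csnk1e and is held by 21.2% of promoters. The canonical E-box CACGTG (6.42% of promoters), TTACGTAA (0.12%), the full element TGACGTCA (1.83%) and the REV-ERB and ROR sequence AGGTCA (16.2%) matched none of the 5 windows. The Per1 window follows a start that lies inside the annotated span of the gene and not at its 5' end, so it does not stand for the whole Per1 promoter. All motifs were searched on both strands, CACGTG and TGACGTCA read the same on either strand, and TGACG lies within TGACGTCA. A match is a stretch of letters and not evidence of binding.

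All levels are log2 of the processed signal minus the 75th percentile of the array, so 0 is the 75th percentile itself, and a level is compared only within 1 probe. Night and morning arrays lay on different slides and carried different scan tags in the scanner output. Hour of collection, slide and scan therefore cannot be told apart. Night arrays had 0 saturated spots and morning arrays 303 to 583, but no member probe was saturated on any array. Over the 10 spike-in sequences, RNAs added during labelling, the difference of night minus morning ran from -0.81 to 1.93 (median -0.21) in controls and from -0.07 to 2.43 (median 0.35) in acrylamide females. In controls the 1.93 was that of the brightest spike-in. Its morning level, 6.98, was nearly that of the spike-ins next below it at night (6.99 and 6.97). On the night slides row 1 held controls and row 2 held acrylamide samples, so treatment and row cannot be told apart there. Of 12 follicular markers of the thyroid, 11 were well above background on all night arrays and all morning control arrays. Slc26a4, an iodide and chloride exchanger, was well above background on no night array.

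Tissue markers also differed among the arrays. The mean of the follicular list was -3.45 on acrylamide female morning replicate 1, against 1.21 to 1.98 on the other 3 arrays of that group and 1.89 to 2.35 in morning controls. The parathyroid mean (Pth, Casr and Gcm2) was 3.35 to 4.14 in females at night and -5.28 to 2.84 in females in the morning. The cartilage mean was -5.59 to -5.20 in females at night and -4.56 to -1.71 in the morning. Skeletal muscle markers ranged from 3.70 to 7.22 in females at night and from 4.93 to 6.70 in the morning. The part of these tissues in the results below was not tested. In bulk tissue, fewer cells of a type and less RNA per cell cannot be told apart.

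**Figure D1:**
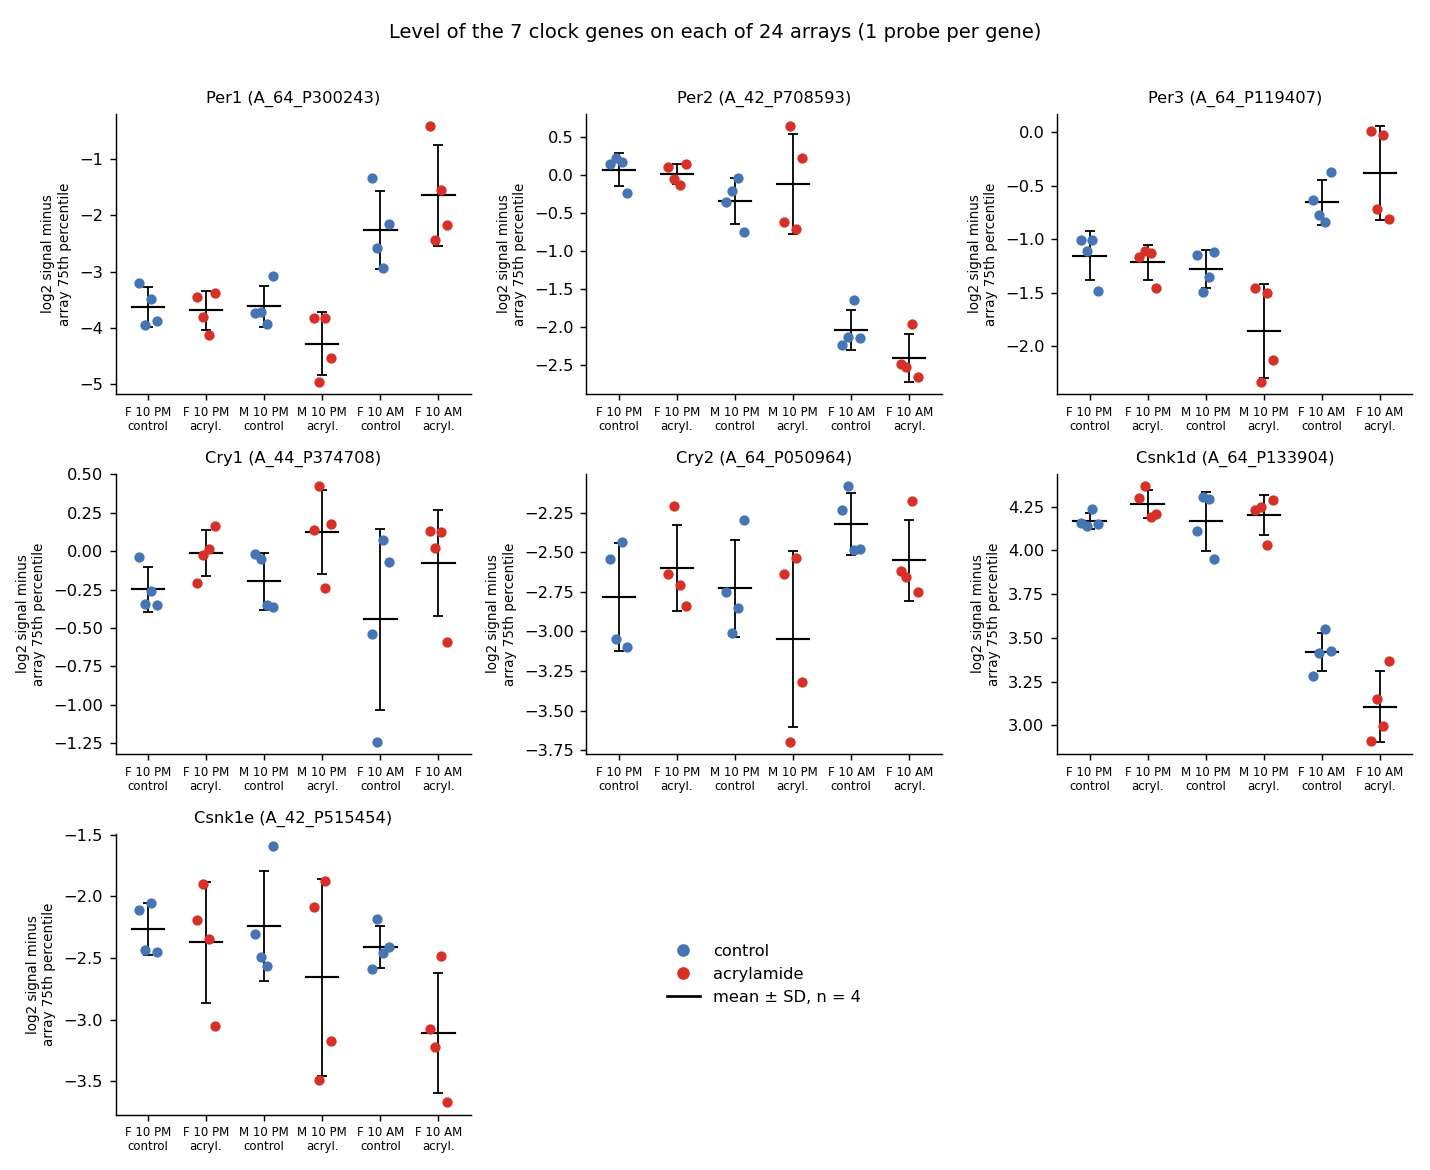
Level of the main probe of each gene (log2 signal minus the 75th percentile of its array, vertical axis) on each of 24 arrays in 6 groups, with the group mean and SD (n = 4). The 8 morning arrays lie below all 16 night arrays for Per2 and Csnk1d and above them for Per1, while Cry1, Cry2 and Csnk1e overlap.

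The comparison of night with morning asked which genes follow the hour of collection. In control females 5 of the 12 probes passed the threshold (limma, Benjamini-Hochberg adjusted p under 0.05 over 23416 probes), 4 higher and 1 lower at night. The background was high: 47.6% of all probes passed, 21.0% higher and 26.6% lower. The share of probes higher depended on scaling, with 4912 of 11138 called probes higher as scaled here, 7587 of 12782 after median centring and 3755 of 13619 after normexp background correction. At an unadjusted p under 0.05 there were 6 of 12 member probes beside 53.4% of all probes in controls, and 7 of 12 beside 60.0% in acrylamide females. The members' share is therefore near the background and is no result about them, and the sizes of single probes are what the data give. In acrylamide females 6 of the 12 passed, 4 higher and 2 lower, against a background of 54.7% (27.2% higher and 27.5% lower). The arrays of the compared hours did not overlap for 6 of 12 probes in controls, against 56.6% of all probes, and for 6 of 12 in acrylamide females, against 44.5%. The median difference of the 12 probes was 0.13 in controls and 0.26 in acrylamide females, beside 0.03 and 0.05 over all tested probes.

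Per1, a period gene that also responds quickly to glucocorticoids, was lower at night. In control females its levels were -3.20, -3.94, -3.48 and -3.88 at night and -1.34, -2.58, -2.94 and -2.16 in the morning. In acrylamide females they were -3.45, -3.81, -4.12 and -3.37 at night and -0.42, -2.43, -1.54 and -2.17 in the morning. Every night array lay below every morning array of its treatment. The fitted difference was -1.37 (SE 0.39, 2.59-fold, adjusted p = 0.00592) in controls and -2.05 (SE 0.39, 4.14-fold, adjusted p = 0.000172) in acrylamide females. The highest level, -0.42, came from the array with the low follicular markers. Without it and 2 other arrays that stood apart in tissue markers, an alternative chosen after seeing the data, the Per1 difference was -1.64 (adjusted p = 0.000401).

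Per2, the period gene most often driven by systemic signals as well as by the local clock, moved the opposite way. Its levels in control females were 0.15, 0.22, 0.17 and -0.24 at night and -2.23, -2.14, -1.64 and -2.14 in the morning. In acrylamide females they were 0.11, -0.05, -0.13 and 0.15 at night and -2.49, -2.52, -1.95 and -2.66 in the morning. The lowest night array stood above the highest morning array by more than the range within any of these groups. Per2 was thus 4.34-fold higher at night in controls (log2 2.12, SE 0.25, adjusted p = 5.32e-07) and 5.38-fold higher in acrylamide females (2.43, SE 0.25, adjusted p = 9.09e-08). In the order of group means, the 4 night groups came first and each overlapped its neighbour: control females 0.08, acrylamide females 0.02, acrylamide males -0.11 and control males -0.33. The morning groups followed at -2.04 and -2.41 and overlapped each other.

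**Figure D2:**
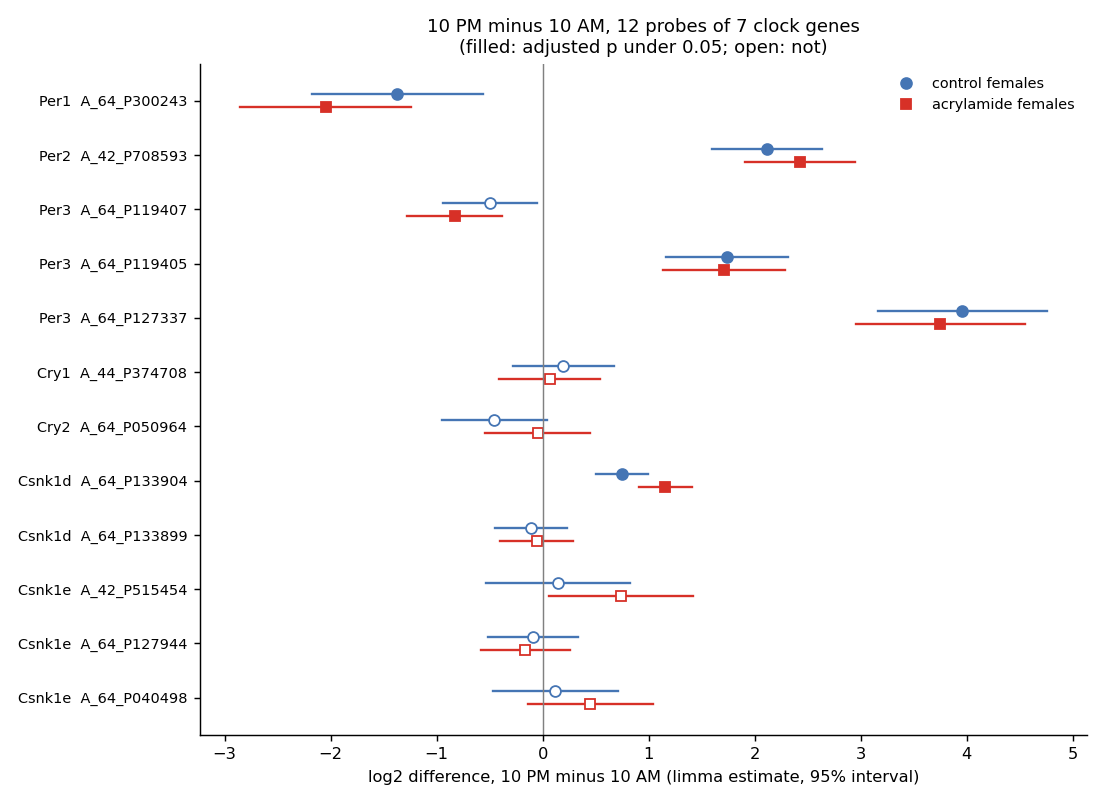
Fitted log2 difference of 10 PM minus 10 AM for each of the 12 probes (horizontal axis, with 95% intervals) in control females (circles) and acrylamide females (squares), filled where the adjusted p is under 0.05. Per1 lies left of 0 and Per2 right of 0 in both, and the probes of Per3 and of Csnk1d are split.

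The 3 Per3 probes did not give the same answer. A_64_P119405 read -2.49, -2.22, -1.96 and -2.74 at night and -3.80, -4.15, -4.43 and -3.98 in the morning in control females. A_64_P127337 read -2.56, -2.72, -2.29 and -3.28 at night and was not well above background on any morning array, where its signal was -7.30 to -6.23. A_64_P119407 read -1.01, -1.11, -1.01 and -1.49 at night and -0.63, -0.78, -0.84 and -0.37 in the morning. The first 2 probes were thus higher at night on every array and A_64_P119407 was lower on every array. The difference for A_64_P119405 was 1.74 (SE 0.28, 3.33-fold, adjusted p = 2.76e-05) in controls and 1.71 (SE 0.28, adjusted p = 3.41e-05) in acrylamide females. For A_64_P127337 the fitted differences were 3.96 in controls and 3.75 in acrylamide females (limma adjusted p = 3.64e-08 and 9.19e-08). With its morning signal not well above background, they were given as bounds on the processed signal, at least 11.45-fold and 11.51-fold. The bound takes each morning array at the probe's own signal or the lowest signal of any probe called above background, whichever was higher. It does not hold under other processing: over 11 other settings the smallest log2 differences were 0.68 and 0.92. A_64_P119407 differed by -0.50 (SE 0.21, adjusted p = 0.062) in controls, which missed the threshold, and by -0.83 (SE 0.21, adjusted p = 0.00266) in acrylamide females.

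The disagreement among the Per3 probes was itself larger than the spread between arrays. The level of A_64_P119405 minus that of A_64_P119407 on the same array was -1.49 to -0.95 at night and -3.61 to -3.16 in the morning in control females. In acrylamide females it was -1.31 to -1.12 at night and -4.09 to -3.22 in the morning. The gap between these probes shifted by 2.23 and 2.54 (two-sided exact permutation p = 0.0286 in each, adjusted p = 0.0286 over 4 such tests, the smallest that 4 against 4 arrays can give). The Per3 and Csnk1d pairs tested were chosen after their values were seen to disagree, and the adjustment covers only these 4 tests. Gaps without overlap must give this smallest p, so the p-values add nothing to the gaps themselves. Normexp background correction shrank the higher probes to 0.55 (A_64_P119405, adjusted p = 0.0231) and 0.68 (A_64_P127337, adjusted p = 0.00585) in controls and left A_64_P119407 at -0.48 (adjusted p = 0.0359). In controls Per3 A_64_P119407 passed in 6 of 13 other settings: normexp, quantile normalization (adjusted p = 0.0335), array weights (-0.42, adjusted p = 0.0082), only the compared arrays (adjusted p = 0.0218), the replicate block (adjusted p = 0.0435), and without the 3 arrays apart in tissue markers (adjusted p = 0.0196). It also passed without acrylamide male night replicate 2 (adjusted p = 0.0462) or without acrylamide female morning replicate 4 (adjusted p = 0.0498).

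**Figure D3:**
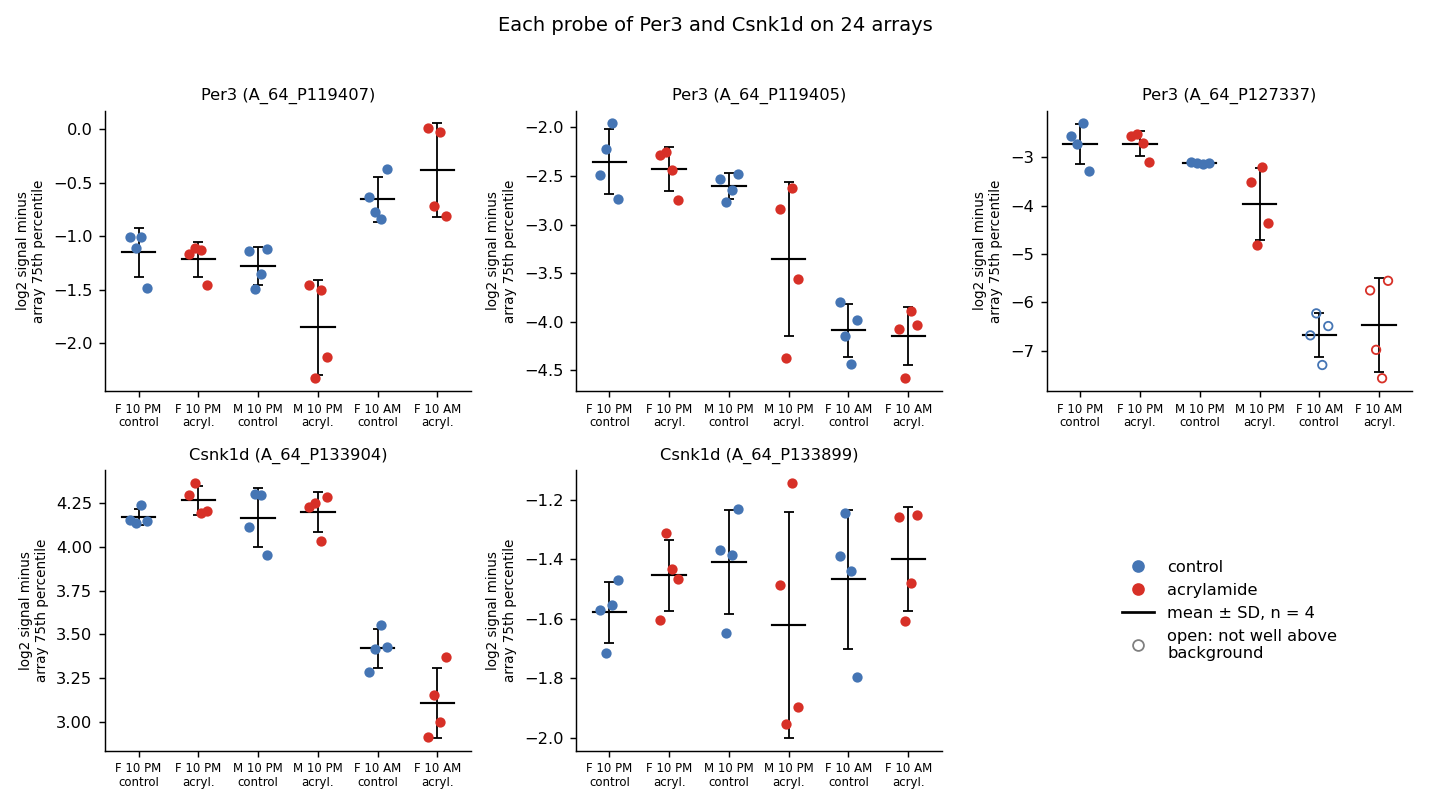
Level of each probe of Per3 (upper row) and Csnk1d (lower row) on 24 arrays in 6 groups, with mean and SD (n = 4), open circles marking arrays where the probe was not well above background. Per3 A_64_P119407 was higher in the morning while the other Per3 probes were lower, and Csnk1d A_64_P133904 was lower in the morning while A_64_P133899 overlapped.

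The cryptochromes, which carry most of the repressor activity of the complex, showed no difference past the threshold. Cry1 read -0.04, -0.35, -0.26 and -0.35 at night and -0.54, -1.24, 0.07 and -0.07 in the morning in control females, and the hours overlapped. Its difference was 0.20 (95% interval -0.28 to 0.67, adjusted p = 0.511) in controls and 0.07 (-0.41 to 0.54, adjusted p = 0.824) in acrylamide females. Cry2 read -2.54, -3.05, -2.43 and -3.10 at night and -2.24, -2.09, -2.49 and -2.48 in the morning in control females, again with overlap. Its difference was -0.46 (-0.95 to 0.04, adjusted p = 0.122) in controls and -0.05 (-0.54 to 0.45, adjusted p = 0.88) in acrylamide females. Cry2 in controls passed with normexp (-0.59, adjusted p = 0.0119) and with array quality weights (-0.50, adjusted p = 0.0123).

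Of the kinases, Csnk1d was split by probe. A_64_P133904 read 4.15, 4.14, 4.24 and 4.15 at night and 3.28, 3.42, 3.55 and 3.43 in the morning in control females. In acrylamide females it read 4.30, 4.37, 4.19 and 4.21 at night and 2.91, 3.15, 3.00 and 3.37 in the morning. Night and morning arrays were well apart in both treatments. The difference was 0.75 (SE 0.12, 1.68-fold, adjusted p = 2.5e-05) in controls and 1.16 (SE 0.12, 2.23-fold, adjusted p = 9.5e-08) in acrylamide females. A_64_P133899, which reads a stretch nearer the 5' end, gave -0.11 (95% interval -0.45 to 0.23, adjusted p = 0.615) and -0.05 (-0.40 to 0.29, adjusted p = 0.796), with overlapping arrays. The gap between the Csnk1d probes was 5.62 to 5.85 at night and 4.66 to 5.22 in the morning in controls. In acrylamide females it was 5.63 to 5.90 and 4.17 to 4.76. It shifted by 0.86 in controls and 1.21 in acrylamide females (two-sided exact permutation p = 0.0286 in each, adjusted p = 0.0286). For this pair too, picked after its values were seen, that p is the smallest possible and is no support beyond the gaps. Beside these, the spike-in sequences differed between the hours by a median of -0.21 in controls and 0.35 in acrylamide females. In controls that difference varied with level. Spike-ins with night levels of 2.95 and 4.93, on either side of A_64_P133904, differed by -0.35 and -0.59, and the brightest by 1.93. The spike-ins with night levels of 7.08, 7.88 and 8.91 stood at 6.97, 6.99 and 6.98 in the morning. Whether a ceiling of the morning signal set these levels was not tested. The part of differences between the hours in the spike-ins in the Csnk1d values was not tested either.

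Csnk1e did not pass in either treatment. Its main probe A_42_P515454 read -2.11, -2.43, -2.05 and -2.45 at night and -2.59, -2.18, -2.46 and -2.41 in the morning in control females. In acrylamide females it read -2.19, -1.90, -2.35 and -3.05 at night and -3.07, -3.22, -2.48 and -3.67 in the morning, with overlap through night replicate 4 and morning replicate 3. The differences were 0.15 (SE 0.33, adjusted p = 0.74) and 0.74 (SE 0.33, adjusted p = 0.0615). The second passed without acrylamide female night replicate 4 (0.96, adjusted p = 0.0212), acrylamide female morning replicate 3 (0.95, adjusted p = 0.0268), acrylamide male night replicate 2 (0.74, adjusted p = 0.0405) or acrylamide male night replicate 3 (0.74, adjusted p = 0.0439). It also passed in 4 of 13 other settings: median centring (0.98, adjusted p = 0.0028), the deposited series matrix (0.98, adjusted p = 0.00283), quantile normalization (0.95, adjusted p = 0.00457) and without the 3 arrays apart in tissue markers (0.75, adjusted p = 0.0325). The overlapping probe A_64_P040498 gave 0.12 and 0.45 and A_64_P127944 gave -0.09 and -0.16, none past the threshold. In acrylamide females Csnk1e A_64_P040498 passed in 3 of 12 other settings, with quantile normalization (0.71, adjusted p = 0.0115), median centring (0.69, adjusted p = 0.0128) and the series matrix (0.69, adjusted p = 0.013), and was lowest with normexp (0.0070, adjusted p = 0.982).

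Whether the night to morning difference changed with acrylamide was tested directly as an interaction. No member probe passed, and 0 of 23416 probes did (limma, 15.8% at an unadjusted p under 0.05). Csnk1d A_64_P133904 had the smallest p among the members, with a difference of differences of 0.41 (SE 0.17, limma adjusted p = 0.265). The same difference of differences over the 10 spike-in sequences ran from 0.18 to 0.73, with a median of 0.51. Per1 stood at -0.68 (95% interval -1.81 to 0.46) and Per2 at 0.31 (-0.42 to 1.04). Both time comparisons were therefore reported separately and no change between them was shown.

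The question of the study was what acrylamide changed in the gland. In females at night 0 of the 12 probes and 0 of 23416 probes passed (background 0% called, 1.77% at an unadjusted p under 0.05, where no member lay). The arrays of the compared groups overlapped for all 12 probes, against 5.33% of all probes that did not overlap. The differences ran from -0.15 for Csnk1e A_64_P127944 (95% interval -0.57 to 0.27) to 0.24 for Cry1 (-0.24 to 0.71). Per1, Per2 and Per3 A_64_P119407 each stood at -0.06, with intervals of -0.87 to 0.74, -0.57 to 0.46 and -0.51 to 0.38.

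In males at night the acrylamide group was split between its arrays. Per1 read -3.73, -3.72, -3.93 and -3.08 in controls and -3.81, -4.95, -3.83 and -4.53 with acrylamide. Per3 A_64_P119405 read -2.53, -2.77, -2.64 and -2.48 in controls and -2.84, -4.37, -2.63 and -3.56 with acrylamide. Per2 read -0.35, -0.21, -0.03 and -0.74 in controls and -0.62, 0.65, -0.70 and 0.23 with acrylamide. Acrylamide replicates 2 and 4 were thus low for Per1 and Per3 and high for Per2, while replicates 1 and 3 lay at or near the control range. On replicate 2 and on replicate 4 alike, 9 of the 12 probes lay below the control range, 1 within it and 2, Per2 and Cry1, above it. On replicates 1 and 3, 9 of 12 lay within it. The share of all tested probes outside the control range on these arrays was not counted, so these counts are no result about the members. The 9 probes below the range on replicates 2 and 4 include every Per3 and Csnk1e probe, among them the overlapping Csnk1e pair. The array quality weights of replicates 2 and 4 were 0.182 and 0.25.

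**Figure D4:**
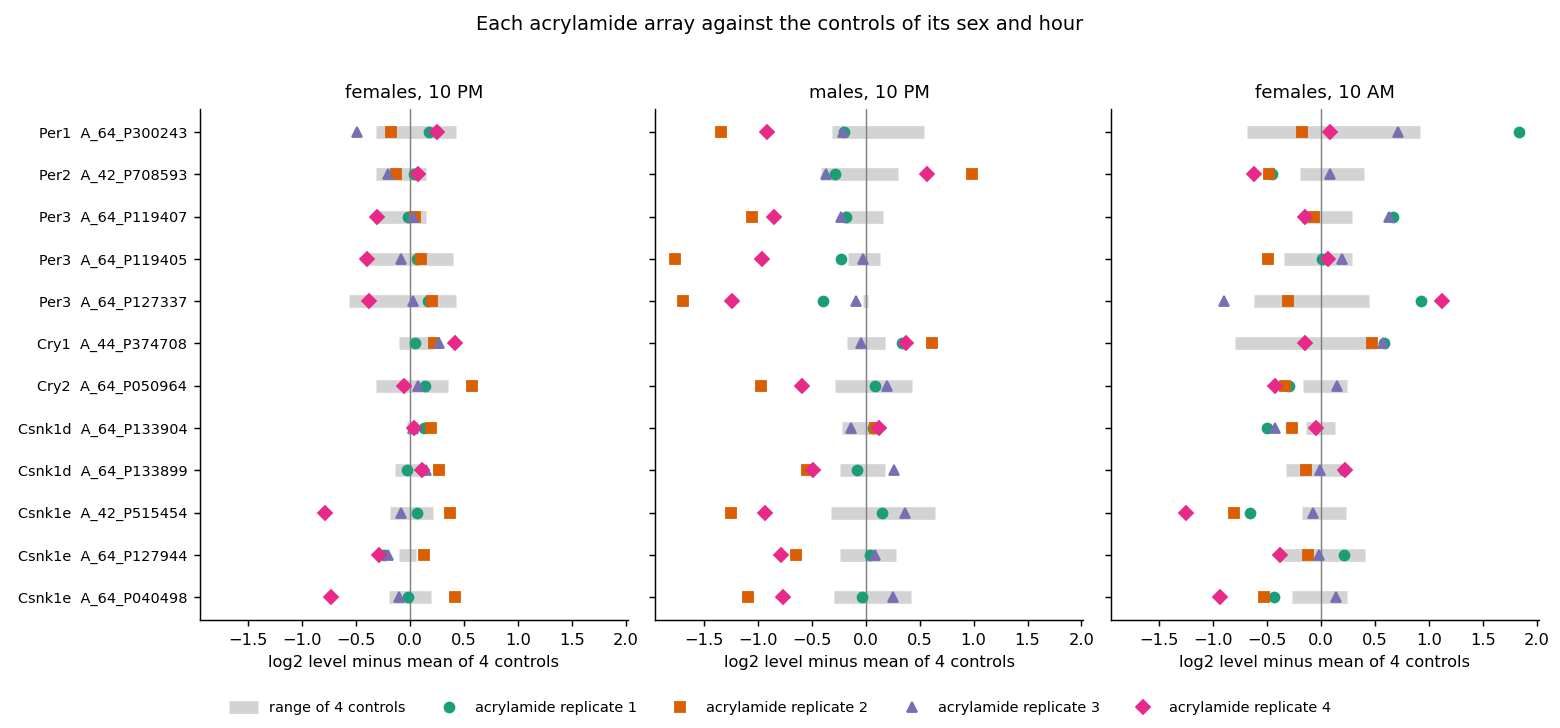
Level of each acrylamide array minus the mean of the 4 controls of its sex and hour (horizontal axis, log2) for the 12 probes, with the control range in grey and a symbol for each replicate. In males at 10 PM replicates 2 and 4 lie below the control range for 9 of 12 probes and above it for Per2 and Cry1. The share over all tested probes was not counted.

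The same arrays differed in tissue markers. The mean of 13 skeletal muscle genes was 1.59 on acrylamide male replicate 2 and 5.30 on replicate 4, against 7.34 and 6.64 on replicates 1 and 3 and 6.63 to 7.79 in controls. All 13 stayed well above background on all 4 arrays. The macrophage mean was -0.65 and -0.89 on replicates 2 and 4, against -0.25 and -0.15 on replicates 1 and 3 and -0.23 to 0.16 in controls. The parathyroid mean was -1.74 on replicate 4 against 3.46 to 4.22 in controls, and the follicular mean was 2.30 to 2.73 against 1.99 to 2.12. Pituitary hormone genes averaged -3.56 to 0.14 with acrylamide and -5.85 to -4.79 in controls. The part of these tissues in the clock values was not tested.

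No member passed in males at night, and 0 of 23416 probes did (limma, background 0% called, 13.7% at an unadjusted p under 0.05). The 3 Per3 probes were the only members at an unadjusted p under 0.05, at -0.58, -0.75 and -0.85 (SE 0.21, 0.28 and 0.38, adjusted p = 0.352, 0.352 and 0.355). A_64_P127337 was also the only member whose arrays did not overlap, against 4.34% of all probes. Per1 stood at -0.67 (SE 0.39, adjusted p = 0.412), Per2 at 0.22 (SE 0.25, adjusted p = 0.673), Cry1 at 0.32 (SE 0.23, adjusted p = 0.5) and Cry2 at -0.32 (SE 0.24, adjusted p = 0.52). The Csnk1e probes stood at -0.42, -0.33 and -0.41, and the median over the 12 was -0.37, beside -0.01 over all probes. Without acrylamide male replicates 2 and 4 and female morning replicate 1 the Per3 probes stood at -0.20, -0.13 and -0.24, Per1 at -0.20 and Cry1 at 0.15. The other 7 probes changed sign: Per2 to -0.33, Cry2 to 0.14, Csnk1d A_64_P133904 to -0.04 and A_64_P133899 to 0.09, and Csnk1e A_42_P515454 to 0.26, A_64_P127944 to 0.06 and A_64_P040498 to 0.11 (adjusted p = 1 for each of the 12). The spike-in sequences were 0.15 to 0.42 higher on the acrylamide arrays of this group, and median centring raised the median of all probes by 0.17.

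In females in the morning no member passed either, while 429 of 23416 probes did (background 1.83%, 0.389% higher and 1.44% lower). Among the members 2 of 12 had an unadjusted p under 0.05, beside 23.4% of all probes. Csnk1d A_64_P133904 stood at -0.31 (SE 0.12, adjusted p = 0.131), and Csnk1e A_42_P515454 at -0.70 (SE 0.33, adjusted p = 0.202). The other Csnk1d probe, A_64_P133899, stood at 0.07, and the other Csnk1e probes at -0.08 (A_64_P127944) and -0.44 (A_64_P040498). Without acrylamide female morning replicate 4, the value of Csnk1d A_64_P133904 was -0.40 and passed (adjusted p = 0.043). Without replicate 1 of that group, the array with the low follicular markers, the value was -0.25 and did not pass. Over the runs that left out 1 array, its limma adjusted p ran from 0.043 to 0.433. Arrays overlapped for all 12 probes, against 8.47% of all probes that did not. These arrays came from 2 slides. Within slides 3 and 4 the difference was -0.34 and -0.28 for Csnk1d A_64_P133904 and -0.44 and -0.96 for Csnk1e A_42_P515454. It was -0.19 and 0.54 for Csnk1d A_64_P133899. For Csnk1e A_64_P127944 it was -0.20 and 0.29, and for A_64_P040498 -0.12 and -0.93, within these slides. The difference of Cry1, 0.37 when pooled, was 0.65 and -0.16 within them, and that of Per3 A_64_P119407, 0.27 when pooled, was 0.38 and -0.03, on 3 against 2 and 1 against 2 arrays. Per1 stood at 0.61 (SE 0.39, adjusted p = 0.335), with 0.30 and 0.87 within slides and 0.21 (adjusted p = 0.779) without the arrays that stood apart in tissue markers. Per2 was at -0.37 (SE 0.25, adjusted p = 0.367), with -0.23 and -0.43. Spike-in sequences were 0.13 to 0.71 lower on the acrylamide arrays here.

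**Figure D5:**
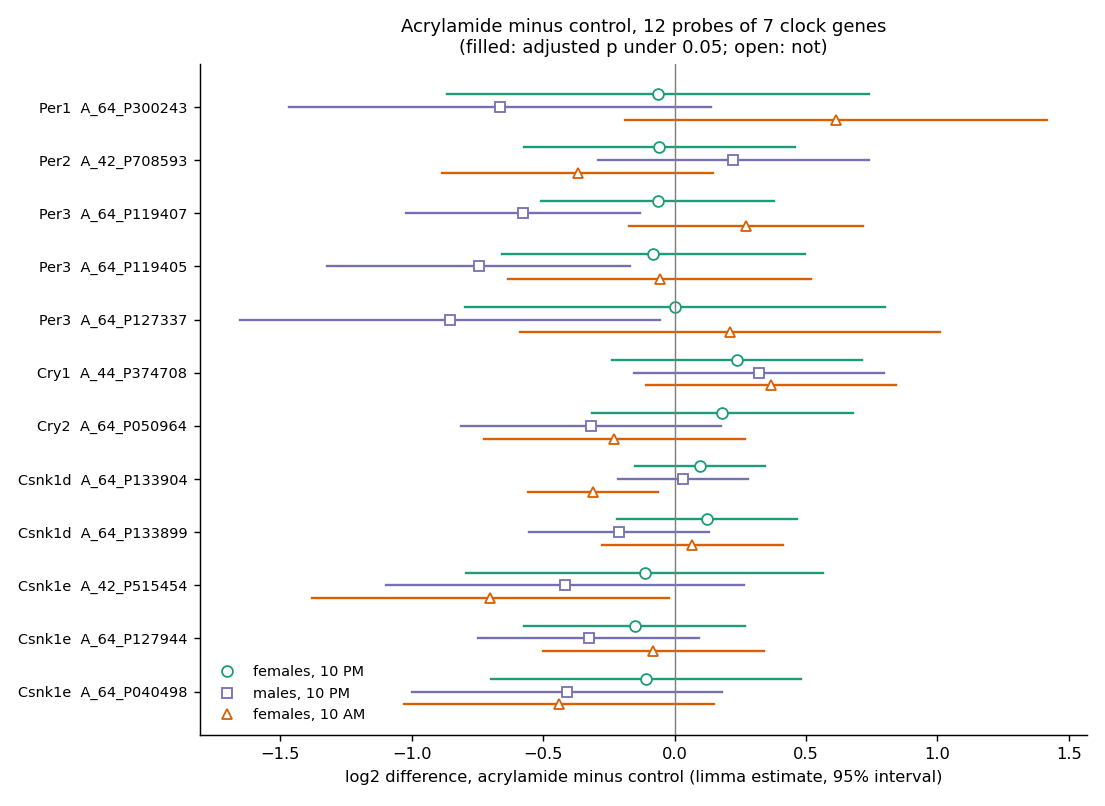
Fitted log2 difference of acrylamide minus control for each of the 12 probes (horizontal axis, with 95% intervals) in females at 10 PM (circles), males at 10 PM (squares) and females at 10 AM (triangles). All symbols are open, since none had an adjusted p under 0.05, and the 3 Per3 probes in males lie left of 0.

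Averaged over the 3 strata, no member passed and 1 of 23416 probes did (background 0.00427%). At an unadjusted p under 0.05 there were 2 of 12 member probes and 6.67% of all probes. Cry1 was the member with the smallest p: it stood at 0.24, 0.32 and 0.37 in the 3 strata, with a mean of 0.31 (SE 0.13, limma adjusted p = 0.727). Csnk1e A_42_P515454 stood at -0.11, -0.42 and -0.70, with a mean of -0.41 (SE 0.19, limma adjusted p = 0.743). The acrylamide difference of males minus that of females at night passed for 0 members and 0 probes (limma, background 0% called, 2.25% at an unadjusted p under 0.05). The smallest member p was that of Per3 A_64_P119405, -0.67 (95% interval -1.48 to 0.15, limma adjusted p = 0.995).

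Control males and females were compared at night, where sex and slide cannot be told apart. No member passed, and 2 of 23416 probes did (background 0.00854%), and at an unadjusted p under 0.05 there were 0 member probes and 1.61% of all probes. The arrays overlapped for all 12 probes, against 3.72% of all probes that did not. Per2 had the largest difference, -0.41 in males relative to females (95% interval -0.93 to 0.10, adjusted p = 1). Csnk1d A_64_P133904 stood at 0.00 (-0.25 to 0.24) and Per1 at 0.01 (-0.79 to 0.81).

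The other genes of the loop give the setting for these values. Of 9 activators and REV-ERB or ROR genes, 8 were tested. Between the hours, control females had 2 higher and 3 lower at night (median -0.21), where 47.6% of all tested probes passed. Arntl, which encodes BMAL1, was at -2.47 (SE 0.26, adjusted p = 1.07e-07), its paralogue Arntl2 at -2.64 (SE 0.32) and the CLOCK paralogue Npas2 at -1.02 (SE 0.26). The REV-ERB gene Nr1d2 stood at 1.98 (SE 0.35, adjusted p = 8.38e-05). In acrylamide females, where 54.7% of all tested probes passed, 2 were higher and 4 lower (median -0.14). They were led by Arntl at -2.80, Arntl2 at -2.23, Npas2 at -1.49 and Nr1d2 at 1.46.

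Of 9 outputs of the loop, all tested, control females had 5 higher and 1 lower at night (median 0.81). The PAR bZIP genes Dbp and Tef stood at 3.12 (SE 0.20, adjusted p = 4.2e-11) and 3.14 (SE 0.23, adjusted p = 6.47e-10), the deubiquitinase gene Usp2 at -0.85 and Nampt, an enzyme of NAD synthesis, at 0.81. Acrylamide females had 4 higher and 2 lower (median 1.16), led by Dbp at 2.88, Tef at 2.34, Hlf at 2.25 and Usp2 at -1.27. Of 23 enzymes and partners of PER and CRY, 22 were tested. Control females had 10 higher and 0 lower (median 0.30), led by Csnk2a2, a casein kinase 2 subunit, at 0.95, Usp7 at 0.88, Wdr5 at 0.73 and Ddb1 at 1.67. Acrylamide females had 9 higher and 3 lower (median 0.27), led by Csnk2a2 at 0.76, Fbxw11, which targets PER for degradation, at 0.57, Ddb1 at 1.50 and Timeless at 2.65. The medians over all tested probes were 0.03 and 0.05. Of all tested probes, 21.0% were called higher and 26.6% lower in control females, and 27.2% and 27.5% in acrylamide females. These shares moved with scaling. No list was tested against them, so the counts are no result about the lists.

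With acrylamide, 1 of these genes passed in any stratum: Hlf, at -1.55 (SE 0.32, adjusted p = 0.0307) in females in the morning. Of all tested probes 1.83% passed in that stratum. The Hlf call held in 8 of 12 other settings. It was lost with only the compared arrays fitted (adjusted p = 0.376), with normexp (-0.60, adjusted p = 0.106), with array weights (-1.39, adjusted p = 0.0833) and with slide as a term (-1.44, adjusted p = 0.0613). For Hlf it was also lost without control female morning replicate 1 (-1.56, adjusted p = 0.0627), replicate 2 (-1.45, adjusted p = 0.108) or replicate 3 (-1.61, adjusted p = 0.0743), or without acrylamide female morning replicate 1 (-1.20, adjusted p = 0.102). In that stratum the smallest p among activators was that of Nr1d1 (1.08, adjusted p = 0.207) and among enzymes that of Usp7 (0.45, adjusted p = 0.11). In males at night the list leaders were Bhlhe40, a repressor of CLOCK and BMAL1, at -2.13 (SE 0.36, adjusted p = 0.0781), Nr1d1 at -1.47 (adjusted p = 0.352) and Fbxw11 at -0.36 (adjusted p = 0.352). In females at night they were Npas2 at -0.46, Dbp at -0.35 and Prkaa2 at -0.60 (adjusted p = 1 for each). Over the 3 strata they were Arntl at 0.39 (adjusted p = 0.689), Bhlhe40 at -0.97 (adjusted p = 0.306) and Wdr5 at 0.18 (adjusted p = 0.727).

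Among the members, deviations from the 6 group means over 24 arrays were compared as a description. They share the arrays, their depth and their tissue makeup. Cry2 and Csnk1e deviated most alike (Pearson r 0.90, Spearman rho 0.89, and r 0.86 without the 2 arrays farthest out in Cry2). Per3 followed Csnk1e (r 0.79) and Cry2 (r 0.71), and Per1 followed Per3 (r 0.68). Without the 3 arrays that stood apart in tissue markers these were 0.71, 0.63 and 0.46. Per1 and Csnk1d A_64_P133904 deviated in opposite directions (r -0.66). Per2 and Cry2 stood at r -0.52, which was -0.05 without the 3 arrays that stood apart in tissue markers, so that relation rests on those arrays. Among probes of a gene, the overlapping Csnk1e probes gave r 0.96 and the Csnk1d pair r -0.34 (-0.17 without those 3 arrays). Per3 A_64_P119407 gave r 0.77 with A_64_P119405 (0.67 without those 3 arrays). With A_64_P127337, not well above background in the morning, it gave r 0.37 (-0.12 without them).

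Of all other genes, those whose deviations were most like each member's are given with Pearson r over the same 24 arrays. For Per1 they were Sema3b (0.93), Prx (0.91) and Plekha4 (0.89). For Per2 they were Nck1 (0.90), Agap1 (0.87) and Celf4 (0.87), and for Per3 A_64_P119407 C11h3orf70, Oaz1 and Sh3d19 (0.91 each). Cry1 had the weakest likeness, with Nell2 (0.82), Tma7 (0.81) and Cct6a (0.81), while Cry2 had Cnnm4 (0.91), Hoxa9 (0.91) and Ern1 (0.90). Csnk1d A_64_P133904 had Dnal4 (0.88), Kctd3 (0.86) and Arf3 (0.86). Csnk1e had the closest, Lima1 (0.95), Mmp15 (0.95) and C2cd4b (0.94).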

How the data were processed

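Total RNA of 24 thyroid samples was labelled with Cy3 and read on Agilent 1-colour arrays. Spot intensity after the scanner software's background and detrending steps is the processed signal that the authors deposited from Agilent Feature Extraction 10.1.1.1, per the file headers, and raw spot means and local background intensity stand beside it. The deposited series matrix holds log2 values that equal the log2 processed signal of each array minus its median (correlation 1 in each of 24 columns). Well-above-background flags came with the deposited files as other, yes or no, values.

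Control spots and outlier spots were left out and spots of a probe were averaged. Levels are log2 processed signal minus the 75th percentile of each array. Probes well above background on at least 3 of 4 arrays of a group were tested (23416 of 30367), with a group-means model over 24 arrays (18 residual degrees of freedom) in limma 3.58.1, R 4.3.3, Benjamini-Hochberg adjustment over all tested probes and a threshold of 0.05. The calculation was tested on simulated data. Gaps between probes of a gene were compared by two-sided exact permutation tests, in pairs chosen after their values were seen. The main probe of a gene is its brightest tested probe. Gene names came from RefSeq GRCr8 tables by accession (18005 probes), symbol (2671) or synonym (557), and otherwise from the array (9134).

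The members, the lists of clock genes and the tissue markers were chosen with earlier results of these data known. The named genes are, per comparison and list, those past the threshold, at most 4 by smallest p, or the 1 with the smallest p where none passes; and for each member the 3 genes most like it in deviations from group means. Alternatives were normexp background correction (offset 50), quantile normalization, median centring, the series matrix, other filters, 1 probe per gene name, array weights, limma trend, fewer arrays in the fit, slide, replicate number, and leaving out each array. No pair of arrays was identical (highest correlation 0.993). Precision is limited by the number of arrays. The levels of the tissue lists are means over all list markers found on the array, including those too dim to be tested. Markers of C cells, fat, fibroblasts, endothelium, T cells, red cells and oesophagus were also measured: on acrylamide female morning replicate 1 the C cell mean was -3.20 (0.52 to 1.31 on the other 3), and T cell markers were 0.96 on replicate 2 (-5.56 to -4.69 on the others). In the same group the oesophageal mean was 1.04 and 1.57 on replicates 1 and 3 (-2.61 to -1.53 in morning controls), and the fat, fibroblast, endothelial and red cell means ranged over 24 arrays from 0.67 to 3.08, 3.30 to 4.20, -0.66 to 0.47 and 2.61 to 4.30.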

Additional observations from a re-analysis of the deposited data

Results flagged for a closer look

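In 5 of 72 sets of 4 arrays (12 probes in 6 groups) 1 array stood farther from the others than Dixon's 95% limit allows for 4 samples; chance alone gives about 1 in 20. Per2 was -0.24 on control female night replicate 4, against 0.15 to 0.22 on the other 3, and -1.64 on control female morning replicate 3, against -2.23 to -2.14. Per3 A_64_P119407 was -1.46 on acrylamide female night replicate 4, against -1.17 to -1.11. Cry1 was -0.59 on acrylamide female morning replicate 4, against 0.02 to 0.13. Csnk1d A_64_P133904 was 4.24 on control female night replicate 3, against 4.14 to 4.15. None of these arrays turned the direction of a night to morning call when it was left out.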

How the results depend on the processing

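No member probe lost its call or changed direction while called under any alternative run. Leaving out each array in turn gave 5 to 6 called member probes for night against morning in control females, 6 to 7 in acrylamide females, and 0 to 1 for acrylamide in females in the morning, where the 1 was Csnk1d A_64_P133904 without acrylamide female morning replicate 4. It gave 0 for each other comparison. The remaining alternatives gave 3 to 7 in control females, 4 to 8 in acrylamide females and 0 for each acrylamide and sex comparison. The lowest, 3 in control females, came with 1 probe per gene name, which tests fewer probes. Counts over all probes moved more: for acrylamide in females in the morning, 429 became 0 with only the arrays compared, 4 with array weights, 18 with median centring, 94 with slide as a term and 1059 with quantile normalization, and 2 to 2386 when 1 array was left out. The cause was not tested. Median centring raised the median of night minus morning by 0.27 in control females and 0.24 in acrylamide females. In acrylamide females it gave 8517 higher of 13870 called, against 6365 of 12811.

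Replicate numbers showed no clear pairing of the samples. In 24 comparisons of an array with the arrays of another group, the same-numbered array correlated best in 5 (r of same-numbered pairs -0.24 to 0.36). Some arrays entered several of these comparisons, and a pairing is not excluded by them. With the replicate block, 6 member probes were called in control females, the gain being Per3 A_64_P119407, and 6 in acrylamide females for night against morning, and 0 in each other comparison. The fit without 3 arrays that stood apart in tissue markers was chosen after seeing the data. The filter that required all 24 arrays dropped Per3 A_64_P127337, whose morning signal gives only a bound.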
